A study of Apis mellifera with 138 samples.

Results

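Honey bees have 3 annotated genes for octopamine beta receptors, Octbeta1R (gene5686, LOC413698), Octbeta2R (gene5694, LOC412896) and Octbeta3R (gene5693, LOC412994), and they are described here in 132 RNA-seq libraries of worker brain and abdominal fat body. They are 3 of 12332 bee genes in the count tables. They were chosen by their identifiers. The receptor names were taken from the study's annotated list of differentially expressed genes (DEGs) of the brain, in which all 3 appear, so their place among the brain DEGs was known in advance.

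Octopamine is a biogenic amine that acts in insects much as noradrenaline acts in vertebrates, and in honey bees it is known for its part in reward learning and in the onset of foraging. Its beta receptors are G protein-coupled receptors that raise intracellular cAMP when the amine binds. In Drosophila melanogaster, Octbeta1R restrains and Octbeta2R promotes growth of synapses at the neuromuscular junction, Octbeta2R is also required in the oviduct for ovulation, and Octbeta3R acts in the gland that makes ecdysone.

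All bees were Apis mellifera workers fed 1000 pmol of an oligonucleotide in 30% sucrose when they were 3 days old. They were collected at 5 days, 48 h after feeding. The antag-305 group received an antagomir, an antisense oligonucleotide directed at ame-miR-305-5p, and the antag-missense group received a control oligonucleotide of the same kind. Each library came from a whole brain or from abdominal fat body still attached to cuticle, with guts and sting removed, of a single bee. The 3 colonies, R2, R3 and R42, were each used for 1 trial, and the effects of colony and of trial cannot be told apart. Each queen had been inseminated by 1 drone, and the study sequenced trials in which the antagomir had lowered the miRNA in the fat body. For colonies R2, R3 and R42 in turn, brains of 12, 12 and 11 antag-305 bees and of 11, 11 and 10 antag-missense bees were kept. The fat bodies kept were of 12, 12 and 11 antag-305 bees and of 9, 11 and 10 antag-missense bees.

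The kept libraries held between 5346264 and 49150105 counts on bee genes and at most 0.373% viral counts. Summed over 9 neuron markers, brain libraries held 5301.1 to 7051.0 CPM (counts scaled to a common library size) and fat body libraries 43.4 to 1147.0 CPM. The single glia marker with a symbol, Eaat-2, lay between 191.9 and 504.7 CPM in brain and had medians of 1.06 CPM in antag-305 and 1.13 CPM in antag-missense fat bodies. Muscle markers (7 genes) summed to between 1384.6 and 4819.9 CPM in fat body libraries against 11.1 to 180.0 CPM in brain. Fat body markers (6 genes) summed to between 347.3 and 13253.5 CPM in fat body and 311.6 to 1074.7 CPM in brain, where transferrin Tsf1 gave most of the sum. Hypopharyngeal gland markers (3 genes) ranged from 0.270 to 1483.1 CPM among brain libraries. No marker list had a gene at or under 3 counts in every library of either tissue.

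The receptor genes form a cluster of 514 kb on chromosome 7 of the HAv3.1 assembly. Octbeta1R lies at chr7:228383-289772 on the plus strand and spans 61.4 kb. Octbeta3R follows on the same strand at chr7:413064-522092 and spans 109.0 kb. Octbeta2R lies at chr7:564310-742348 on the minus strand and spans 178.0 kb, its end 42217 bases from the end of Octbeta3R. The counted features were whole gene spans, introns included, and the median span of all genes was 3613.5 bases. The receptors were longer than 94.5% (Octbeta1R), 97.1% (Octbeta3R) and 98.5% (Octbeta2R) of all genes.

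**Figure D1:**
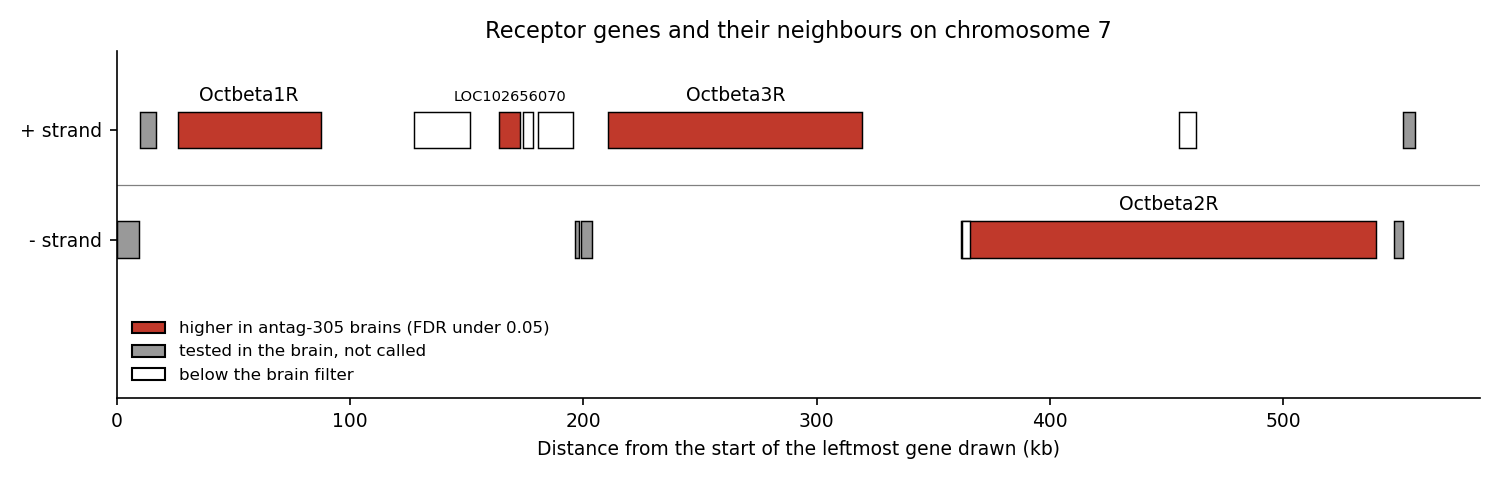
Spans of the receptor genes and their neighbours, drawn to scale in kb from the leftmost gene, with the plus strand above and the minus strand below. Red marks genes higher in antag-305 brains at FDR under 0.05, grey marks genes tested and not called, and white marks genes below the filter on low values; the 3 receptors and LOC102656070 are red.

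Between Octbeta1R and Octbeta3R lie 6 other genes, of which 3 passed the brain filter. LOC102656070 (gene5688, an uncharacterized protein) was the only neighbour called in the brain, at 4.98 ± 1.29 CPM in antag-305 and 3.26 ± 1.13 CPM in antag-missense (SD; log2 fold change 0.60, SE 0.10, FDR=6.01e-05, edgeR quasi-likelihood test). The remaining tested neighbours, LOC413192, LOC726656 and the 4 genes flanking the cluster, had log2 fold changes between -0.25 (LOC411802) and 0.03 (LOC726656) and were not called. The long noncoding gene LOC107964750, inside the span of Octbeta2R and on its strand, had no count in any kept library. LOC726762, inside the same span on the opposite strand, averaged 0.213 CPM in antag-305 and 0.224 CPM in antag-missense brains.

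The brain expressed all 3 receptors in every bee, and Octbeta2R was the most abundant by counts. Octbeta2R ranged from 206.7 to 326.6 CPM (median 259.8) over 67 brains, Octbeta3R from 69.5 to 224.7 CPM (median 134.7), and Octbeta1R from 48.4 to 100.7 CPM (median 68.2). Over all brains the coefficient of variation was 0.28 for Octbeta3R, 0.16 for Octbeta1R and 0.10 for Octbeta2R. Within groups of 1 colony and treatment it ran from 0.13 to 0.22, from 0.10 to 0.17 and from 0.06 to 0.13, and the colony means of Octbeta3R were 172.1, 129.5 and 108.1 CPM in R2, R3 and R42. In CPM the order Octbeta2R, Octbeta3R, Octbeta1R held in 67 of 67 brains.

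Per kb of gene span the levels were closer. Octbeta2R averaged 1.47 ± 0.146 CPM per kb, Octbeta3R 1.26 ± 0.348 and Octbeta1R 1.14 ± 0.180 (SD, n = 67 brains). On this scale Octbeta2R exceeded Octbeta1R in 64 brains and Octbeta3R in 50 brains. Octbeta3R exceeded Octbeta1R in 37 brains, with a median ratio of 1.05. These counts pool colonies that differ in Octbeta3R. In R2, R3 and R42 its mean CPM was 172.1, 129.5 and 108.1. The means were 66.3, 72.9 and 71.4 for Octbeta1R, and 259.8, 271.6 and 255.5 for Octbeta2R. The order per kb was not counted within colonies, so the pooled counts are not read as spread between bees alone. Spans include introns, so this scale is not a level of mature transcript per exon length.

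In the fat body, Octbeta2R was the receptor detected at depth in every bee. It ranged from 23.9 to 157.0 CPM (median 55.0, counts 256 to 2095) over 65 libraries. Octbeta3R ranged from 0.592 to 48.9 CPM (median 3.64, counts 7 to 652), an 82.6-fold range. Octbeta1R ranged from 0 to 23.2 CPM (median 0.346). It had no count in 5 libraries and 3 or fewer counts in 25, and it failed the filter for testing. Per kb of span, Octbeta2R (median 0.309 CPM per kb) exceeded Octbeta3R (median 0.0334) and Octbeta1R (median 0.00563) in 65 of 65 libraries. In these bulk samples, fewer cells of a type and less RNA per cell cannot be told apart.

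Both tissues were kept for 65 bees, and in each of these bees every receptor was higher in brain than in fat body. Scaled over both tissues together, Octbeta1R lay between 47.4 and 107.9 CPM in brain (median 71.2) and between 0 and 26.4 CPM in fat body (median 0.366). For Octbeta3R the ranges were 66.8 to 247.6 CPM (median 141.2) and 0.618 to 52.3 CPM (median 3.77). For Octbeta2R they were 213.2 to 350.9 CPM (median 268.8) and 24.6 to 167.9 CPM (median 56.9). The tissues did not overlap for any of the receptors, but how many of all genes show no such overlap was not counted.

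The fitted brain over fat body difference on the log2 scale was 5.11 (SE 0.20, 34.5-fold) for Octbeta3R and 2.31 (SE 0.07, 4.95-fold) for Octbeta2R. Both were called (FDR=1.76e-35 and 8.80e-43, edgeR quasi-likelihood test with bee as a block), where 46.1% of the 8283 genes tested were higher in brain. In antag-missense bees alone (30 bees) the log2 differences were 4.72 and 2.34, and with the bee left out of the model they were 4.45 and 2.23. Octbeta1R failed the fat body filter and entered this fit only as a receptor of interest, through its brain level, so its call is not counted against that share. Its fitted log2 difference was 6.43 with the bee in the model and 5.05 without, and with so few fat body counts neither gives a firm fold.

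Several other amine receptors had the same low median in fat body and wide range. Oa1, the octopamine receptor of the alpha type, had a median of 94.2 CPM in brain and 1.23 CPM in fat body. The dopamine receptor DopR2 had medians of 99.3 and 0.518 CPM. The serotonin receptor 5-HT2beta overlapped between tissues, with brains from 8.01 to 14.6 CPM and fat bodies from 1.31 to 116.5 CPM. Of 9 other amine receptors with a symbol, 5 did not overlap between the tissues. The share of all genes without overlap was not counted, so nothing is read from this number.

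Antag-305 brains had more Octbeta3R than antag-missense brains, and the medians lay farthest apart in colony R3. In R3, antag-305 bees ranged from 114.2 to 178.9 CPM (median 159.3) and antag-missense bees from 69.5 to 141.2 CPM (median 109.5). In R42 the ranges were 91.9 to 143.4 CPM (median 126.1) and 74.6 to 109.7 CPM (median 96.1). In R2 they were 128.9 to 224.7 CPM (median 177.0) and 114.0 to 214.0 CPM (median 167.4). The treatment groups overlapped in each colony. The antag-305 bees above the antag-missense median of their colony were 12 of 12 in R3, 10 of 11 in R42 and 8 of 12 in R2.

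**Figure D2:**
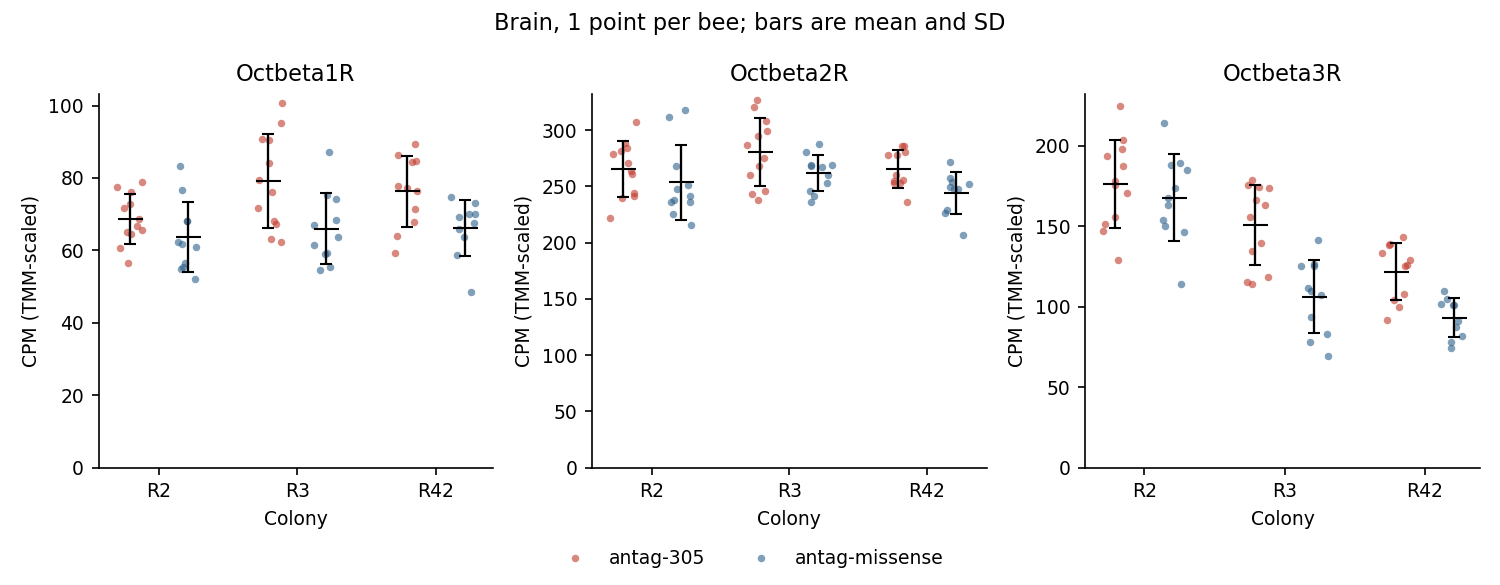
Brain CPM of each receptor (y axis, from 0) by colony (x axis), 1 point per bee, antag-305 in red and antag-missense in blue, with black bars for the mean and SD. Octbeta3R is higher in antag-305 bees of R3 and R42, where medians are 159.3 against 109.5 CPM and 126.1 against 96.1 CPM, and is lower in R42 than in R2 in both treatments.

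Over all colonies, Octbeta3R averaged 150.3 ± 32.2 CPM in 35 antag-305 brains and 123.3 ± 39.3 CPM in 32 antag-missense brains (SD). The log2 fold change was 0.32 (SE 0.06, 24.5% higher, FDR=3.79e-04, edgeR quasi-likelihood test with colony in the model). Fitted within colonies it was 0.07 (SE 0.09, P=0.466) in R2, 0.50 (SE 0.11, P=1.54e-04) in R3 and 0.38 (SE 0.09, P=2.05e-04) in R42, and of these the R3 value alone passed the threshold of FDR under 0.05 (FDR=0.00823, edgeR). Without R3 the value was 0.22 and was not called (FDR=0.242, edgeR). Of 9118 genes tested, 5, 404 and 9 were called within R2, R3 and R42, and 10 without R3.

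Octbeta1R was also higher in antag-305 brains. In R2, antag-305 brains ranged from 56.5 to 78.9 CPM (median 67.7) and antag-missense brains from 52.1 to 83.4 CPM (median 61.8). In R3 the ranges were 62.4 to 100.7 CPM (median 77.7) and 54.7 to 87.2 CPM (median 63.7), and in R42 59.3 to 89.5 CPM (median 77.1) and 48.4 to 74.7 CPM (median 68.4). The groups overlapped in each colony. Over all colonies, the means were 74.7 ± 10.9 and 65.2 ± 8.99 CPM (SD), and 28 of 35 antag-305 brains lay above the antag-missense median. The log2 fold change was 0.19 (SE 0.05, 14.2% higher, FDR=0.00702, edgeR). Within colonies it was 0.11 (SE 0.07) in R2, 0.26 (SE 0.09) in R3 and 0.20 (SE 0.08) in R42. In turn P was 0.160, 0.0101 and 0.0187, and FDR was 0.958, 0.113 and 0.372 (edgeR). It was 0.15 without R3 (FDR=0.320, edgeR) and 0.19 without R42 (FDR=0.0571), and not called in either.

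Octbeta2R, the most abundant receptor by counts, was called with the smallest log2 fold change of the 3. In R2, antag-305 brains ranged from 221.6 to 307.2 CPM (median 267.5) and antag-missense brains from 215.8 to 318.1 CPM (median 241.9). In R3 the ranges were 237.7 to 326.6 CPM (median 281.0) and 236.4 to 288.0 CPM (median 267.5), and in R42 236.4 to 286.3 CPM (median 259.9) and 206.7 to 272.1 CPM (median 248.5). Here too the groups overlapped in each colony. The means were 270.6 ± 25.1 and 253.5 ± 24.3 CPM (SD), and 27 of 35 antag-305 brains lay above the antag-missense median. The log2 fold change was 0.09 (SE 0.03, 6.76% higher, FDR=0.0484, edgeR), just under the threshold. Within colonies it was 0.06 (SE 0.07) in R2, 0.10 (SE 0.06) in R3 and 0.12 (SE 0.05) in R42. Leaving out any 1 colony ended the call, at FDR of 0.0553 without R2, 0.437 without R3 and 0.217 without R42 (edgeR).

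Of all genes tested in the brain, 5.47% were called higher in antag-305, and nothing is read from the 3 receptors against that share, since their names came from the list of brain DEGs. Other genes with spans at least as long as that of Octbeta1R (654 genes) were called higher in 9.33% and lower in 1.22%, with a median log2 fold change of 0.06. With offsets for gene length in each library these shares were 3.36% and 4.28%. Under the same offsets the log2 fold change was 0.23 for Octbeta3R (FDR=0.00191), 0.10 for Octbeta1R (FDR=0.124) and 0.03 for Octbeta2R (FDR=0.627), so Octbeta3R was the only receptor still called (edgeR). The share of counts on 792 other genes of 50 kb or more had a median of 19.2% in antag-305 brains and 19.4% in antag-missense brains. Summed neuron markers had medians of 6078.8 and 6188.3 CPM. Marker by marker, 5 of the 9 had log2 fold changes above 0, with a median of 0.04. Of these, NLG-5 was called higher (0.15, FDR=0.0181, edgeR) and no marker was called lower. With the mean log2 CPM of the markers as a covariate, the log2 fold changes were 0.28 for Octbeta3R, 0.17 for Octbeta1R and 0.08 for Octbeta2R. The last was not called (FDR=0.121, edgeR).

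The difference between treatments did not pass the test for differing between colonies in the brain. The interaction had P=0.0104 and FDR=0.442 for Octbeta3R, and FDR=0.999 for both Octbeta1R and Octbeta2R (edgeR), where 0.428% of all genes were called.

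**Figure D3:**
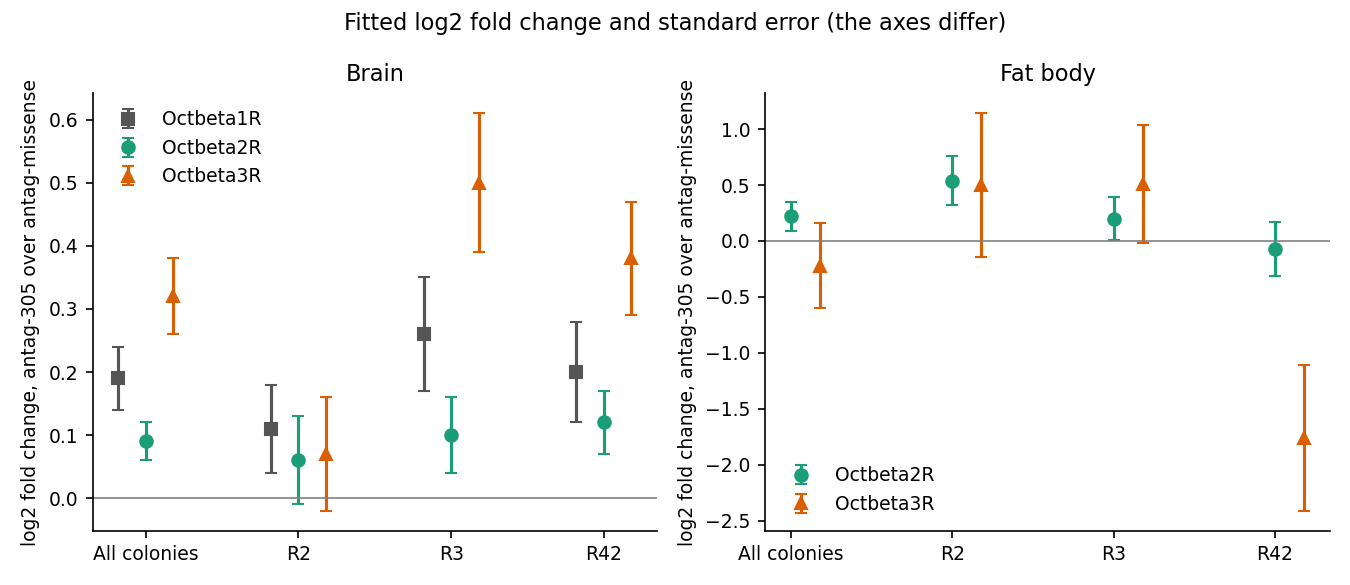
Fitted log2 fold change of antag-305 over antag-missense (y axis, scales differ between panels) for all colonies together and for each colony alone (x axis), with bars of 1 SE. In brain all points lie above 0, and in fat body Octbeta3R of colony R42 stands at -1.76 while R2 and R3 stand at 0.50 and 0.51; Octbeta1R was not tested in fat body.

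Among 9 other amine receptors in the brain, 5 were higher in antag-305, none was lower, and the median log2 fold change was 0.16. Over all tested genes 5.47% were higher, 5.87% were lower and the median was 0.00, and among the genes at least as long as Octbeta1R 9.33% were higher. Those called were the octopamine receptor Oa1 (0.16, SE 0.05, FDR=0.0190), the dopamine receptors Dop1 (0.15, SE 0.04, FDR=0.0171), DopR2 (0.37, SE 0.07, FDR=4.22e-04) and Dop3 (0.20, SE 0.06, FDR=0.0336), and the serotonin receptor 5-HT2alpha (0.28, SE 0.08, FDR=0.0239, all edgeR). The tyramine receptor TyrR (0.03), 5-HT1 (0.17), 5-HT2beta (-0.03) and 5-ht7 (0.07) were not called. With gene length offsets DopR2 and 5-HT2alpha were called, and without colony R3 none of the 9 was (median 0.12), where 0.0768% of all genes were called higher.

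Tbh, TyHyd and Dat, the genes for amine synthesis and transport that had a symbol, did not pass the test in the brain. Tbh, tyramine beta-hydroxylase, which makes octopamine, averaged 10.9 ± 1.75 CPM in antag-305 and 10.6 ± 2.13 CPM in antag-missense (log2 fold change 0.04, SE 0.07, FDR=0.663, edgeR). TyHyd, tyrosine hydroxylase, had a log2 fold change of 0.27 (SE 0.13, FDR=0.136), and Dat, a transporter, 0.24 (SE 0.13, FDR=0.186). The adenylate cyclase gene Ac3, whose product makes cAMP, had 0.06 (SE 0.03, FDR=0.148). A further 5 amine pathway genes, among them the synthesis gene Tdc2, had names in the brain DEG list alone, so their direction is not a result. All were called higher (FDR=0.00359 to 0.0491, edgeR). Their log2 fold changes were 0.24 for the dopamine and ecdysteroid receptor DopEcR, 0.36 for the tyrosine decarboxylase Tdc2, 0.52 for the protein kinase A subunit Pka-C3, 0.13 for adenylate cyclase type 6 and 0.31 for the transcription factor CrebB.

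Colonies differed in brain Octbeta3R and did not pass the test for the other receptors. Over both treatments Octbeta3R was lower in R3 than in R2 by a log2 difference of -0.43 (SE 0.08, FDR=1.07e-05) and lower in R42 than in R2 by -0.69 (SE 0.08, FDR=1.52e-10). R42 lay below R3 by -0.26 (SE 0.08, FDR=0.0122). The test over 3 colonies gave FDR=1.54e-10 for Octbeta3R, 0.144 for Octbeta1R and 0.160 for Octbeta2R (edgeR). Thus 1 of 3 receptors was called, where 33.6% of all brain genes were. With gene length offsets Octbeta1R was called as well (FDR=0.0146, edgeR). The colony test, here and in the fat body, sets differences against the spread between bees within a colony. It covers these 3 colonies, each with 1 trial, and does not measure variation among colonies at large.

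In the fat body, no receptor passed the test between treatments. Octbeta2R averaged 61.6 ± 27.1 CPM in 35 antag-305 libraries and 52.6 ± 17.8 CPM in 30 antag-missense libraries (SD), with ranges of 23.9 to 157.0 CPM (median 59.2) and 25.6 to 108.3 CPM (median 49.8) that overlapped. Its log2 fold change was 0.22 (SE 0.13, P=0.0888, FDR=0.571, edgeR), and within colonies 0.54 (SE 0.22) in R2, 0.20 (SE 0.19) in R3 and -0.07 (SE 0.24) in R42. Octbeta3R ranged from 0.592 to 48.9 CPM (median 2.90) in antag-305 and from 0.986 to 29.1 CPM (median 3.81) in antag-missense, with a log2 fold change of -0.22 (SE 0.38, FDR=0.855). Octbeta1R ranged from 0 to 23.2 CPM (median 0.346) in antag-305 and from 0 to 14.1 CPM (median 0.357) in antag-missense. Fitted without a filter it had a log2 fold change of -0.46 (SE 0.69, FDR=0.905). Of all genes tested in the fat body, 0.0678% were called.

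**Figure D4:**
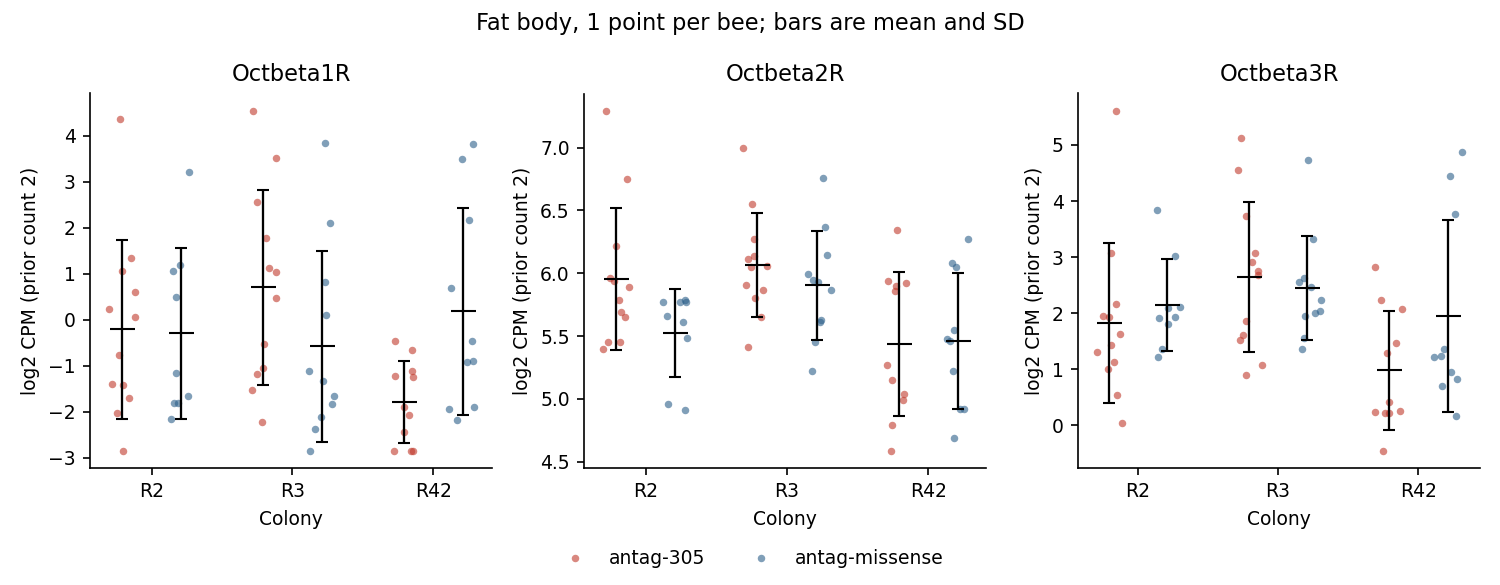
Fat body log2 CPM of each receptor with a prior count of 2 (y axis) by colony (x axis), 1 point per bee, antag-305 in red and antag-missense in blue, with black bars for the mean and SD. Octbeta1R and Octbeta3R spread over several log2 units within each group, and antag-missense bees 14, 18 and 23 of R42 stand above every antag-305 bee of that colony in both.

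In colony R42, the fat body of antag-305 bees held little Octbeta1R. The 11 antag-305 libraries ranged from 0 to 0.589 CPM (median 0.130), with 3 or fewer counts in 8 of them, and the 10 antag-missense libraries from 0.0821 to 13.9 CPM (median 0.490). Octbeta3R ranged from 0.592 to 6.97 CPM (median 1.19) in antag-305 and from 0.986 to 29.1 CPM (median 2.20) in antag-missense bees of that colony. Its log2 fold change there was -1.76 (SE 0.65, P=0.0125, FDR=0.0911, edgeR), and it was 0.50 (SE 0.64) in R2 and 0.51 (SE 0.53) in R3. The pattern in R42 was not particular to these receptors: of 8844 genes, 871 were called there, 779 of them lower in antag-305. Of 6 other amine receptors tested, Dop3 (-4.28), 5-ht7 (-4.11), 5-HT1 (-4.04), 5-HT2beta (-2.78) and Dop1 (-2.17) were called lower in R42. Oa1 (-0.14) was not called. The summed neuron markers of R42 ranged from 43.4 to 147.3 CPM in antag-305 and from 73.5 to 749.4 CPM in antag-missense fat bodies, and their part in the difference within R42 was not tested.

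The treatment by colony interaction in fat body had P=0.0237 and FDR=0.133 for Octbeta3R, and FDR=0.475 for Octbeta2R (edgeR), where 10.5% of all genes were called. Among the 9 neuron markers, brp, Nrx-1, NLG-3, NLG-4, NLG-5 and nAChRa1 were called in that test. Their R42 minus R2 differences in the treatment effect were -2.82, -4.57, -4.65, -5.05, -3.87 and -3.68 on the log2 scale. Syt1 (-0.51, FDR=0.462), Syx1A (-0.41, FDR=0.698) and Para (-1.01, FDR=0.306) were not called (edgeR), so the markers did not move as 1 set. The same difference was -2.12 for Octbeta3R, which was not called.

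The treatment effect did not pass the test for differing between tissues in bees with both. Brain minus fat body, it was 0.45 (SE 0.61, FDR=0.839) for Octbeta1R, which failed the fat body filter, 0.72 (SE 0.35, P=0.0452, FDR=0.442) for Octbeta3R and -0.06 (SE 0.13, FDR=0.907) for Octbeta2R on the log2 scale (edgeR). Of all genes, 0.350% were called. The SEs of each receptor leave differences of the size seen in brain undetectable in fat body. For Octbeta2R, the fat body SE was 0.13 against a brain log2 fold change of 0.09.

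Fat body Octbeta2R differed between colonies (FDR=0.0182), and Octbeta3R did not pass (FDR=0.314, edgeR), where 45.4% of all genes were called. R42 lay below R3 in Octbeta2R by a log2 difference of -0.50 (SE 0.15, FDR=0.00576). This call was lost among antag-missense bees alone (FDR=0.238) and with gene length offsets (FDR=0.632).

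The 4 fat body libraries with the most Octbeta1R also held much Octbeta3R and Octbeta2R. The antag-305 bee 20 of R3 held 23.2 CPM of Octbeta1R, 34.9 CPM of Octbeta3R and 127.7 CPM of Octbeta2R, and its neuron markers summed to 1063.0 CPM. The antag-305 bee 21 of R2 held 20.5, 48.9 and 157.0 CPM of these receptors and 1147.0 CPM of neuron markers. The antag-missense bee 14 of R3 held 14.1, 26.4 and 108.3 CPM with 699.0 CPM of markers, and the antag-missense bee 14 of R42 held 13.9, 29.1 and 77.0 CPM with 749.4 CPM. Among 65 fat bodies, the neuron markers of these 4 bees ranked between the first and the fifth. High Octbeta2R also occurred without the others: the antag-305 bee 23 of R2 held 107.7 CPM of Octbeta2R with 0.450 CPM of Octbeta1R and 2.97 CPM of Octbeta3R. The antag-missense bee 19 of R3 held 82.6 CPM of Octbeta2R with no count of Octbeta1R.

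Across 65 fat bodies, with the mean of each colony and treatment removed, Octbeta1R and Octbeta3R correlated with r = 0.84 (Spearman's rho = 0.76, both permutation P=1e-05, the smallest 100000 resamples can give). The adjusted P was 3.00e-05 for r and 4.50e-05 for rho over 9 relations, and r was 0.81 without the 2 farthest libraries. Within R2, R3 and R42 it was 0.87, 0.87 and 0.81. Octbeta1R had 3 or fewer counts in 25 of the 65 libraries, and in 11 of 21 in R42. Its log2 values therefore lean on the prior count of 2, here and in its other fat body relations. Octbeta2R and Octbeta3R had r = 0.76 (rho = 0.68, both permutation P=1e-05, adjusted P=3.00e-05 and 4.50e-05), 0.70 without the 2 farthest, and 0.75, 0.69 and 0.83 within colonies, but with gene length offsets the sign turned to r = -0.33 (permutation P=0.00749). Octbeta1R and Octbeta2R had r = 0.53 (rho = 0.42, permutation P=1e-05 and 6.20e-04, adjusted P=3.00e-05 and 0.00186), 0.42 without the 2 farthest, and 0.58, 0.50 and 0.54 within colonies.

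Neuron markers moved with the receptors in the fat body. Their mean log2 CPM correlated with Octbeta1R at r = 0.95 (rho = 0.93), with Octbeta3R at r = 0.90 (rho = 0.83) and with Octbeta2R at r = 0.63 (rho = 0.50). These 3 are of 12 relations added after the data were seen, with permutation P=1e-05 for each r and adjusted P=2.00e-05, and P between 1e-05 and 7.00e-05 for rho (adjusted P between 2.40e-05 and 1.20e-04). Without the 2 farthest libraries r was 0.93, 0.88 and 0.54. Within colonies r lay between 0.93 and 0.96 for Octbeta1R, between 0.89 and 0.94 for Octbeta3R and between 0.60 and 0.67 for Octbeta2R. With gene length offsets the relation with Octbeta3R was 0.22 and that with Octbeta2R turned to -0.90. Octbeta1R, below the filter, had no offsets. With the markers as a covariate in the treatment comparison, the log2 fold change was -0.16 for Octbeta3R (FDR=0.629) and 0.26 for Octbeta2R (FDR=0.303, edgeR). Scaled over both tissues, Nrx-1, NLG-3, NLG-4 and NLG-5 of these markers overlapped between tissues. NLG-4 reached 271.6 CPM in fat body and 136.4 CPM in brain. Syt1, brp, Syx1A, Para and nAChRa1 did not overlap. The markers are therefore not taken as a measure of neuron content, and its part was not tested.

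**Figure D5:**
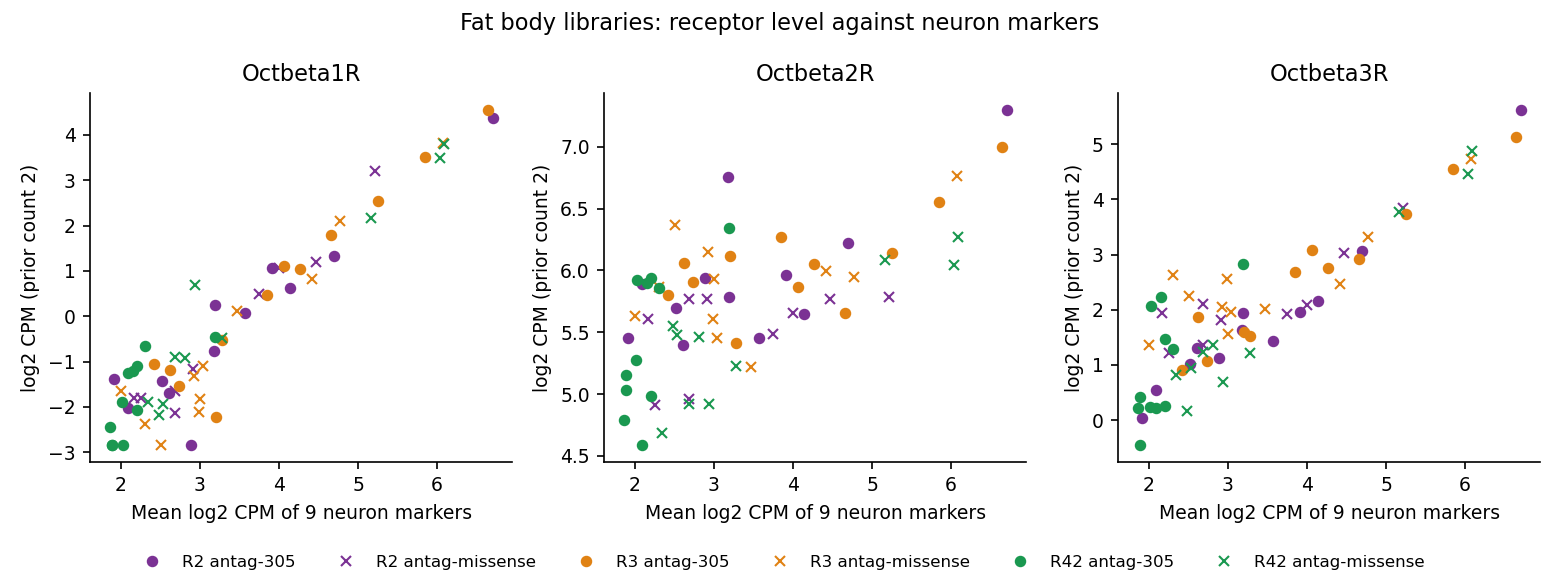
Fat body log2 CPM of each receptor (y axis) against the mean log2 CPM of 9 neuron markers (x axis), 1 point per library, colored by colony, with circles for antag-305 and crosses for antag-missense. Octbeta1R and Octbeta3R rise with the markers (r = 0.95 and 0.90 once group means are removed), while Octbeta2R follows the markers less closely (r = 0.63) and stays at or above 23.9 CPM where they are lowest.

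The share of fat body counts on other genes of 50 kb or more ranged from 1.25 to 12.2% in antag-305 and from 1.58 to 8.52% in antag-missense libraries. In the same family of 12, it correlated with Octbeta3R at r = 0.93 (rho = 0.85), with Octbeta2R at r = 0.88 (rho = 0.88) and with Octbeta1R at r = 0.81 (rho = 0.68), each with permutation P=1e-05 (adjusted P=2.00e-05 for r and 2.40e-05 for rho). Without the 2 farthest libraries r was 0.91, 0.86 and 0.77, and within colonies it lay between 0.77 and 0.93. Its part in the receptor values was not tested.

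In the brain the receptors were less tied to each other. Octbeta1R correlated with Octbeta2R at r = 0.29 (rho = 0.27, permutation P=0.0156 and 0.0293, adjusted P=0.0352 and 0.0528, n = 67) and with Octbeta3R at r = 0.27 (rho = 0.30, permutation P=0.0258 and 0.0147, adjusted P=0.0464 and 0.0330). Without the 2 farthest brains these were 0.33 and 0.28. The first was 0.38 in R2, 0.53 in R3 and -0.20 in R42, and so did not hold in all colonies, and with gene length offsets it was 0.45 (permutation P=1.60e-04). The second was 0.28, 0.22 and 0.36 within colonies, and -0.08 with gene length offsets. Octbeta2R and Octbeta3R had r = -0.24 (rho = -0.17, permutation P=0.0487 and 0.161, adjusted P=0.0731 and 0.206), -0.17 without the 2 farthest, and -0.57, -0.02 and -0.05 in R2, R3 and R42.

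Brain neuron markers correlated with Octbeta3R at r = 0.41 (rho = 0.48, permutation P=5.90e-04 and 4.00e-05, adjusted P=0.00101 and 8.00e-05) and with Octbeta1R at r = 0.37 (rho = 0.37, permutation P=0.00174 and 0.00209, adjusted P=0.00232 and 0.00279). With Octbeta2R they had r = 0.29 (rho = 0.26, permutation P=0.0161 and 0.0318, adjusted P=0.0194 and 0.0365). Without the 2 farthest brains r was 0.41, 0.32 and 0.28. Within R2, R3 and R42 the values were 0.23, 0.43 and 0.68 for Octbeta3R, 0.60, 0.05 and 0.52 for Octbeta1R, and 0.33, 0.30 and 0.22 for Octbeta2R. With gene length offsets they were -0.12, 0.11 and 0.41.

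The share of brain counts on other genes of 50 kb or more correlated with Octbeta2R at r = 0.39 (rho = 0.44, permutation P=0.00132 and 2.50e-04, adjusted P=0.00198 and 3.75e-04). It did not pass with Octbeta1R at r = 0.18 (rho = 0.20, permutation P=0.156 and 0.112, adjusted P=0.156 and 0.112). With Octbeta3R it had r = 0.19 (rho = 0.26, permutation P=0.119 and 0.0334, adjusted P=0.130 and 0.0365). Without the 2 farthest brains r was 0.39, 0.09 and 0.15. Within R2, R3 and R42 it was 0.35, 0.40 and 0.47 for Octbeta2R, 0.35, -0.06 and 0.26 for Octbeta1R, and 0.07, 0.14 and 0.45 for Octbeta3R.

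No relation between the brain and the fat body of the same bee passed the test for any receptor. Over 65 bees, r was 0.19 for Octbeta1R (rho = 0.20, permutation P=0.134 and 0.116, adjusted P=0.172 and 0.175), 0.04 for Octbeta2R (rho = 0.08, permutation P=0.724 and 0.534, adjusted P=0.787 and 0.601) and -0.03 for Octbeta3R (rho = -0.05, permutation P=0.787 and 0.674, adjusted P=0.787 and 0.674). Without the 2 farthest bees r was 0.15, 0.02 and 0.05.

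The brain genes most like each receptor were found by the correlation of log2 CPM with colony and treatment means removed, over 67 brains and 9117 other genes. For Octbeta3R these were LOC411653 (r = 0.85), LOC551947 (r = 0.84), annotated in the study as WD repeat and FYVE domain-containing protein 3, and LOC412281 (r = 0.84), annotated as protein purity of essence. For Octbeta1R they were LOC408810 (r = 0.69), LOC726543 (r = 0.65) and LOC413310 (r = 0.64). For Octbeta2R they were LOC413616 (r = 0.67), LOC412926 (r = 0.66) and LOC102654975 (r = 0.66). Spans of these genes ran from 16644 to 32106 bases for Octbeta3R, from 1897 to 189905 for Octbeta1R and from 97229 to 276097 for Octbeta2R. The median r over all other genes was 0.03 for Octbeta1R, 0.00 for Octbeta2R and 0.01 for Octbeta3R.

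The receptors were not among each other's nearest genes in either tissue. In the brain, Octbeta3R ranked 1799 of 9117 genes by likeness to Octbeta1R, Octbeta1R ranked 2101 by likeness to Octbeta2R, and Octbeta2R ranked 5857 by likeness to Octbeta3R. In the fat body, Octbeta3R ranked 550 of 8844 genes by likeness to Octbeta1R and 536 by likeness to Octbeta2R, although the correlations themselves were higher there.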

How the data were processed

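The authors sequenced mRNA from the whole brain and abdominal fat body of single worker bees with a stranded kit. Per the labels and the study's methods, reads were aligned to HAv3.1 with STAR 2.7.6a under default settings and counted with featureCounts of Subread 2.0.0. The strand setting and the treatment of multiply aligned reads are not given in the sources used here. The deposited values are counts, not normalized, with 1 library per file, on 12332 whole gene spans and 5 virus genomes. Of 138 libraries, the 132 with a viral share of at most 0.5% were used: 67 brain and 65 fat body. The text of the study names 0.05%, which 1 kept brain library exceeds (0.373%, 95% Wilson interval 0.369 to 0.376%). Intervals and the floor of 3 counts cover counting error only. Bee numbers, from the labels, link the tissues of a bee.

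The filter kept 9118 genes that exceeded 1 CPM in 32 or more brains, and 8844 genes that did so in 30 or more fat bodies. They were fitted in R 4.3.3 with edgeR 4.0.16 after TMM scaling, on terms for colony and treatment, and tested by the legacy quasi-likelihood F test. Calls needed an FDR (Benjamini-Hochberg, over all genes tested) under 0.05. SEs were taken as the absolute log2 fold change divided by the square root of F. Brain and fat body were compared in 65 bees with bee as a block, over genes passing both filters and Octbeta1R. Correlations used log2 CPM with a prior count of 2, group means removed, and two-sided permutation tests of 100000 resamples in Python 3.11.15. Fits were tested on simulated data.

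The receptors and gene lists were chosen with earlier results of these data known. Genes named are the receptors, their neighbours, list members with a symbol and, for each receptor, the 3 brain genes most like it. Lists were matched by symbol, so 9 of the neuron markers planned and 9 other amine receptors were found. Symbols came from the RefSeq table of Amel_HAv3.1, with 12262 genes matched by position. Alternatives were other scaling factors, the newer quasi-likelihood method, DESeq2 1.42.0, other filters, other sets of libraries, models without colony or with bee number as a block, each colony left out, gene length offsets by loess (span 0.5) and neuron markers as a covariate. Chosen later, with the data in view, were the bees of the bee number block fitted without it, and 12 correlations with neuron markers and long genes. Gene and protein sequences were not used here.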

Additional observations from a re-analysis of the deposited data

Results flagged for a closer look

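In the fat body of colony R2, antag-missense bee 17 stood apart from the other 8 bees of its group. It held 9.12 CPM of Octbeta1R, where the next highest bee held 2.15 CPM, and the gap was 0.771 of the group's range. It held 14.2 CPM of Octbeta3R, where the next held 7.98 CPM, a gap of 0.518 of the range. Its summed neuron markers, 395.6 CPM, were the highest of the group. Both gaps were above Dixon's critical value for a group of 9. The check covered 9 sets of values, each of 1 receptor in a group of 9 or 10 bees. Its rate of chance flags, about 5%, holds for normally distributed values. Octbeta1R in this group was skewed, with a mean of 1.70 CPM and a median of 0.307 CPM, and both flags fell on the same bee.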

How the results depend on the processing

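The brain difference kept its sign for each receptor in every alternative run, and the call was lost in 14 of 48. Octbeta3R lost it without colony R3 (0.22). Octbeta1R lost it without R3 (0.15), without R42 (0.19), with gene length offsets (0.10) and with bee number within colony as a replicate block (0.18, FDR=0.0581, edgeR). Octbeta2R lost it with all 69 libraries (0.09), without the colony term (0.09), with the replicate block (0.08) and in the same bees without it (0.08, added after the data were seen), without R2 (0.11), R3 (0.09) or R42 (0.08), with gene length offsets (0.03) and with neuron markers as a covariate (0.08). The correlation of deviations between bees that share a number ran from -0.69 to 0.60 over 6 to 11 pairs in each colony and tissue. Its median was 0.12 in brain and 0.24 in fat body of R42, with 5 of 9 pairs over 0.1 in each, and between -0.46 and 0.02 in R2 and R3. Not every pair exceeded 0.1, so the number is not taken as a pairing. In the fat body Octbeta3R turned to 0.50 without R42. Treatment by tissue turned to -0.51 for Octbeta1R without R42 and to 0.05 for Octbeta2R without R2. Colony calls changed for brain Octbeta1R with length offsets (FDR=0.0146) and for fat body Octbeta2R in antag-missense bees alone (0.238) and with length offsets (0.632). The brain over fat body difference kept its sign in all 21 alternatives.

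Brain correlations changed within colonies: Octbeta1R with Octbeta2R was 0.38 in R2 and -0.20 in R42, Octbeta1R with Octbeta3R was 0.28, 0.22 and 0.36 in R2, R3 and R42 and -0.08 with length offsets, and Octbeta2R with Octbeta3R was -0.57 in R2 and -0.25 with length offsets. The fat body relation of Octbeta2R with Octbeta3R turned to -0.33 with length offsets. Between tissues, r was -0.13 for Octbeta1R in R2, -0.15 for Octbeta2R with length offsets, and 0.05 without the farthest bees, 0.00 in R3, 0.02 in R42 and 0.07 with length offsets for Octbeta3R.

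The 1034 brain DEGs became 1338 in DESeq2, 451 with the replicate block against 1461 in the same 56 bees without it, 441 with the marker covariate, 498 without R42 and 10 without R3. The 6 fat body DEGs became 14 in DESeq2, 16 with the covariate, 86 without R42, 1 in the bees of the block fitted without it, and 0 with the block, without R2 or without R3, where 214, 351 and 1448 genes had an unadjusted P under 0.05 (edgeR). The causes were not tested. Octbeta1R failed the fat body filter, at a median of 5 counts, and its fits there rest on few counts.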
